A study of Stropharia rugosoannulata with 3 samples.

Results

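Manganese peroxidase (MnP) is a heme enzyme that fungi secrete to break down lignin. It uses hydrogen peroxide to oxidize Mn(II) to Mn(III), which diffuses away from the enzyme and attacks phenolic structures. MnPs belong to the class II peroxidases, a family known from white rot and litter-decomposing fungi, and fungal genomes often carry several MnP copies, some of them next to each other. In cultured fungi, MnP transcription is known to respond to the growth substrate, to nutrients and to manganese.

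The 17 genes that the study assigned to MnP in the *Stropharia rugosoannulata* genome include 5 whose gene model names place them on contig 11. These 5 genes are described here. They were taken by contig and SRUG identifier and not by their level, although earlier results of these data were known. They are 5 of the 11750 gene models in the deposited tables. The paper classes all 17 MnP proteins as atypical, because their Mn-oxidation site lacks an acidic residue of the typical site. SRUG_09291, SRUG_09292 and SRUG_09293 are models 30, 31 and 32 of contig 11, consecutive models near the end of the contig where the numbering starts. Contig 11 has 611 listed models, and SRUG_09779 and SRUG_09835 hold positions 518 and 574 in that order. SRUG_09291 was thus preceded by 29 models and SRUG_09835 was followed by 37. The tables give an order of models and no coordinates, exons or sequences.

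Transcripts were sequenced from vegetative mycelium grown on potato dextrose agar (PDA), a sugar-rich medium without added lignin, at 25 °C. All 3 libraries come from this one group, with no treated, mutant or fruiting body group beside it. The labels give the strain as the cultivar Heinong No.1, while the sample titles name S68, which the paper describes as a single-spore monokaryon derived from that cultivar. Which of them was sequenced is not settled by these sources, and all 3 libraries carry the same labels. Nothing in the sources used here says whether the libraries came from separate cultures, and the spread between them may therefore be technical in part. The whole-number counts summed to between 29678333 and 31831513 per library. FPKM relates the fragments of a gene to the length of that gene and to the depth of the library. Library 2 stood somewhat apart: Pearson's r of log2(FPKM + 1) across all genes, which are not independent replicates, was 0.985 between libraries 1 and 3 and 0.969 and 0.973 between library 2 and these. Results for the MnP genes are therefore also given without it. With 1 condition there was no differential test, and levels are given per library and as the mean with the SD.

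None of the 5 MnP genes on contig 11 had a mean FPKM of at least 1, the level used here to call a gene expressed. Of all gene models 83.3% reached it, as did 78.1% of the models of contig 11 and 9 of the other 12 MnP genes. At a mean of at least 0.1 FPKM the number was 2 of 5, against 87.2% of all gene models. Of the other 12 MnP genes, all but SRUG_04745 (mean 0.0323 FPKM) reached 0.1. At least 1 count in at least 1 library was recorded for 3 of the 5 genes, against 89.3% of all gene models, 85.4% of those on contig 11 and all 12 of the other MnP genes. Without library 2, 2 of the 5 genes had a count and still none reached a mean FPKM of 1. The difference between the genes on contig 11 and the other MnP genes was not tested. The paper calls 13 of the 17 MnP genes expressed in mycelium. Its main text gives no threshold for that call. The call differed from the level used here, which only 9 of the 17 reached. As only 12 MnP genes lie elsewhere, the 13 must include at least 1 gene of contig 11, which the main text does not name. The 5 genes together received 13, 75 and 8 counts in libraries 1, 2 and 3, out of 7359, 6694 and 7778 for all 17 MnP genes. They thus carried 0.166%, 1.06% and 0.0913% of the summed MnP FPKM in these libraries, and the share was small in every library and largest in library 2.

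**Figure D1:**
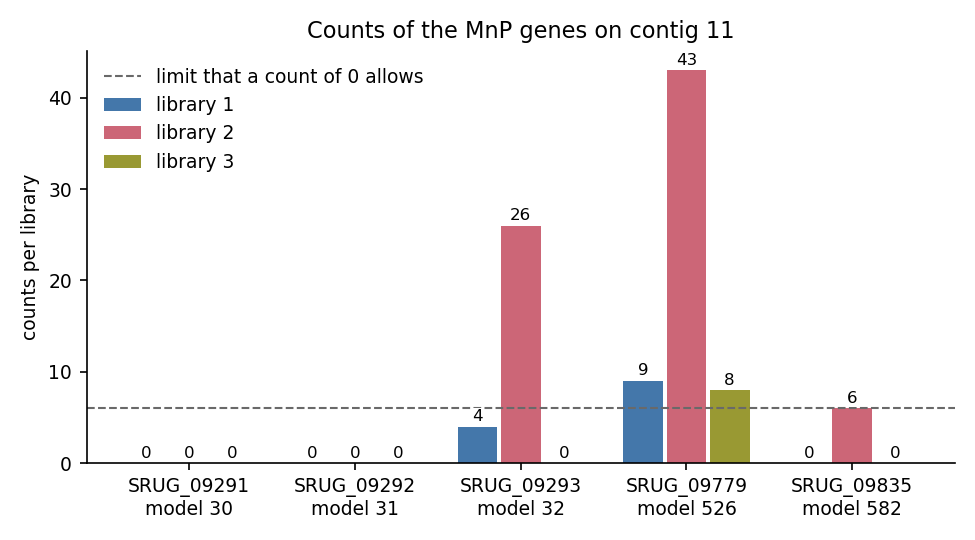
Counts in each of the 3 libraries (bars, with the count printed above) for the 5 MnP genes on contig 11, with the limit of 6 counts that a count of 0 allows as a dashed line. SRUG_09291 and SRUG_09292 are at 0 throughout, and the tallest bar of each other gene is that of library 2, with 26, 43 and 6 counts.

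SRUG_09291 and SRUG_09292 had 0 counts in each of the 3 libraries. Low counts in these tables were mostly even (67.7% of the values from 1 to 10), as when a sequenced fragment adds 2 counts. The others were odd, so 2 counts per fragment is an inferred conversion. The limits and intervals below rest on it. A count of 0 was taken to allow up to 3 missed fragments (6 counts), a limit that was set. This corresponds to 0.188, 0.197 and 0.202 CPM, counts relative to the library total, in libraries 1, 2 and 3. The exact Poisson interval (95%) for 0 fragments reaches higher, to 3.69 fragments, or 0.232, 0.242 and 0.249 CPM in the same order. The limit of 6 counts and the intervals below cover counting error only. FPKM also depends on the length of a gene, which the tables do not give. The limit of 6 counts was therefore converted with the counts per FPKM of 7 MnP genes. These had at least 200 counts in every library. On that scale a count of 0 allowed up to between 0.147 and 0.162 FPKM in library 1, between 0.154 and 0.170 in library 2 and between 0.158 and 0.174 in library 3. SRUG_10902, with 186 counts in library 3, was not among the 7. Its counts per FPKM were 0.473 times those of the median gene, so the limit for a gene like it would be higher. Transcripts of SRUG_09291 and SRUG_09292 were therefore not detectable at this depth, and levels below about these limits cannot be told from 0.

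SRUG_09293, the last of the 3 consecutive genes, had 4, 26 and 0 counts in libraries 1, 2 and 3. These gave 0.107, 0.739 and 0 FPKM, with a mean of 0.282 ± 0.400 FPKM (SD, n = 3). Only the count of library 2 lay above the limit of 6, so the gene was detected above this limit in that library alone. The exact Poisson interval (95%, on fragments) was 0.394 to 1.26 FPKM in library 2 and 0.0129 to 0.386 FPKM in library 1. Without library 2 the mean was 0.0534 FPKM. In the order of mean FPKM the gene ranked 10100 of 11750 models, 500 of the 611 on contig 11 and 12 of the 17 MnP genes.

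SRUG_09779 was the highest MnP gene of the contig and the only one with counts in every library, as 86.5% of all gene models had. It had 9, 43 and 8 counts in libraries 1, 2 and 3, all above the limit of 6. The values were 0.223, 1.11 and 0.205 FPKM, with a mean of 0.514 ± 0.520 FPKM (SD, n = 3). Library 2 was again the high library, and the other libraries differed little from each other. The exact Poisson interval in library 2 was 0.698 to 1.69 FPKM. It did not overlap the intervals of library 1 (0.0726 to 0.521 FPKM) and library 3 (0.0558 to 0.525 FPKM). Without library 2 the mean was 0.214 FPKM. The gene ranked 9979 of all models, 490 on contig 11 and 11 among the MnP genes.

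SRUG_09835 had 6 counts in library 2 and 0 in libraries 1 and 3. This is 0.156 FPKM in library 2 and a mean of 0.0520 ± 0.0901 FPKM (SD, n = 3). The 6 counts equal the limit that a count of 0 allows, so the value of library 2 was not separated from the zeros of the other libraries, and no fold difference is given. It ranked 14 among the MnP genes.

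By mean, the order was SRUG_09779, SRUG_09293, SRUG_09835 and then the genes without a count, but each neighbouring pair among the first 3 differed by less than the larger of its SDs over libraries. SRUG_09779 was above SRUG_09293 in each of the 3 libraries, although their Poisson intervals overlapped in library 2 (0.698 to 1.69 against 0.394 to 1.26 FPKM). Counts per FPKM, which grow with the length used for the FPKM, were 0.801, 0.879 and 0.868 times those of the median gene for SRUG_09293, SRUG_09779 and SRUG_09835. The other 12 MnP genes ranged from 0.473 (SRUG_10902) to 0.932 (SRUG_04745), so on this measure the 3 genes with counts lay within the range of the family.

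The other MnP genes, which encode enzymes of the same kind on contigs 4, 5, 8, 9 and 15, had mean values from 0.0323 to 56.9 FPKM, with a median of 14.5. Without library 2 these were 0.0485 to 67.95 FPKM with a median of 15.2, and 9 of the 12 still reached a mean FPKM of 1. SRUG_07844, the next MnP gene above SRUG_09779 by mean, had 9, 54 and 12 counts in libraries 1, 2 and 3 and a mean of 0.692 FPKM, or 0.289 FPKM without library 2. SRUG_03862, which fell between SRUG_09293 and SRUG_09835, had 0.159, 0.139 and 0.0586 FPKM. SRUG_04745 had 0.0969 FPKM in library 1 and no count elsewhere. The genes of contig 11 thus took 5 of the 8 lowest places of the family, shared with these 3 genes. SRUG_08480, the lowest MnP gene with a mean FPKM of at least 1, had 0.594, 11.5 and 1.84 FPKM and a mean of 1.22 FPKM without library 2.

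**Figure D2:**
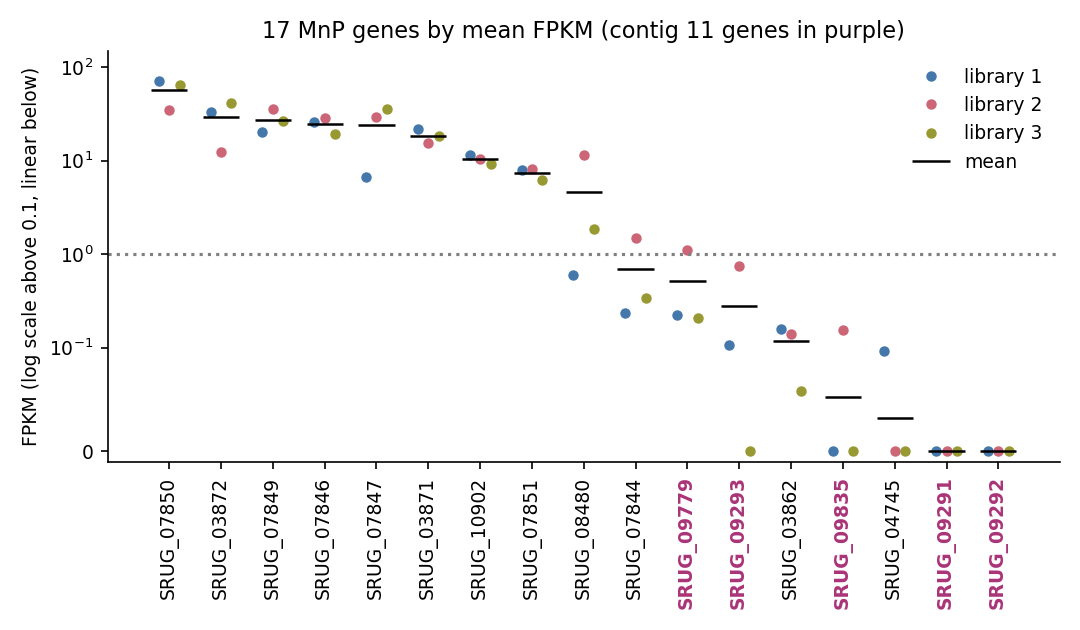
FPKM of the 17 MnP genes in each of the 3 libraries (points) and their mean (horizontal line), ordered by mean, on an axis that is logarithmic above 0.1 and linear below; the dotted line marks an FPKM of 1. The 5 genes of contig 11, labelled in purple, lie at the low end, and only SRUG_09779 in library 2, at 1.11 FPKM, rises above the dotted line.

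The highest value of each of the 3 genes with counts was that of library 2. For SRUG_09779 the FPKM of library 2 came to 5.20 times the mean of libraries 1 and 3, and with TMM-normalized CPM to 4.80 times. Relative to the library totals, the ratio of its fragments was 4.93, with an exact interval of 2.18 to 12.2. For SRUG_09293 libraries 1 and 3 held 2 fragments together, below the detection limit, so the size of its ratio is poorly known. It was 13.1 on fragments, with an exact interval of 2.97 to 119.6, and 13.9 in FPKM. Of the fragments of SRUG_09293 in all 3 libraries, 13 of 15 came from library 2 (86.7%, exact Clopper-Pearson interval 59.5% to 98.3%). For SRUG_09779 it was 22 of 31 (71.0%, 52.0% to 85.8%). Library 2 held 33.2% of all counts, below both intervals. For SRUG_09835 all 3 fragments were from library 2, with an interval of 29.2% to 100% that includes this value.

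Weakly expressed genes were highest in library 2 about as often as all genes. Where they were highest there, it was more often by a wide margin. Of the 710 gene models with a count and a mean FPKM below 1, 44.4% were highest in library 2. This is near the 43.4% of all 10494 models with a count. Among the 710 models, 23.0% were both highest in library 2 and at least 4 times the mean of libraries 1 and 3. This includes models counted in library 2 alone. Of the 10494 models, 299 met both conditions, and 163 of these were among the 710. The same was not counted for library 1 or 3, so the wide margin cannot be called particular to library 2. All 3 MnP genes of contig 11 with counts met both conditions. For SRUG_09293 this was over values below the detection limit. SRUG_09835 met them over counts of 0 in libraries 1 and 3, from which its 6 counts were not separated. Among the other 12 MnP genes, 5 were highest in library 2, near the share among all models with a count. Of these, 2 reached 4 times the mean of libraries 1 and 3, namely SRUG_07844 (5.19 times) and SRUG_08480. For SRUG_08480, 82.5% of the fragments were in library 2. In contrast, SRUG_03872 had 14.1% and SRUG_07850 20.1% of their fragments in library 2, so the MnP family was not uniformly higher there. No cause of the difference between libraries was tested, and library 2 is a replicate and not a separate condition.

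**Figure D3:**
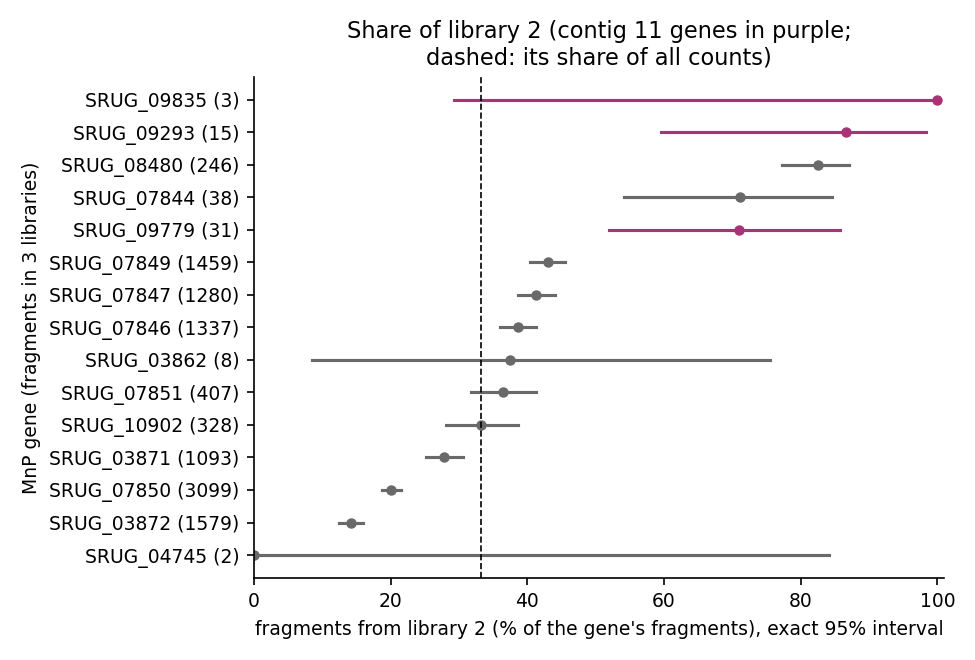
Share of each MnP gene's fragments that came from library 2 (point) with its exact 95% interval (line) for the 15 MnP genes with counts; the number of fragments follows the gene name, and the dashed line is the 33.2% that library 2 held of all counts. SRUG_09293 and SRUG_09779 (purple) lie above the dashed line with their whole intervals, as do SRUG_08480, SRUG_07844, SRUG_07849, SRUG_07847 and SRUG_07846, whereas the interval of SRUG_09835 crosses it.

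The level of the surrounding models gave the background for each gene. Over the whole of contig 11 the median of the mean FPKM was 15.5, against 23.9 over all gene models, and 89 of its 611 models (14.6%) had no count in any library, against 10.7% of all. The 5 models listed on each side of the 3 loci numbered 30, of which 23 reached a mean FPKM of 1 and 5 had no count. These neighbours are not annotated in the tables, and their functions are not given here.

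**Figure D4:**
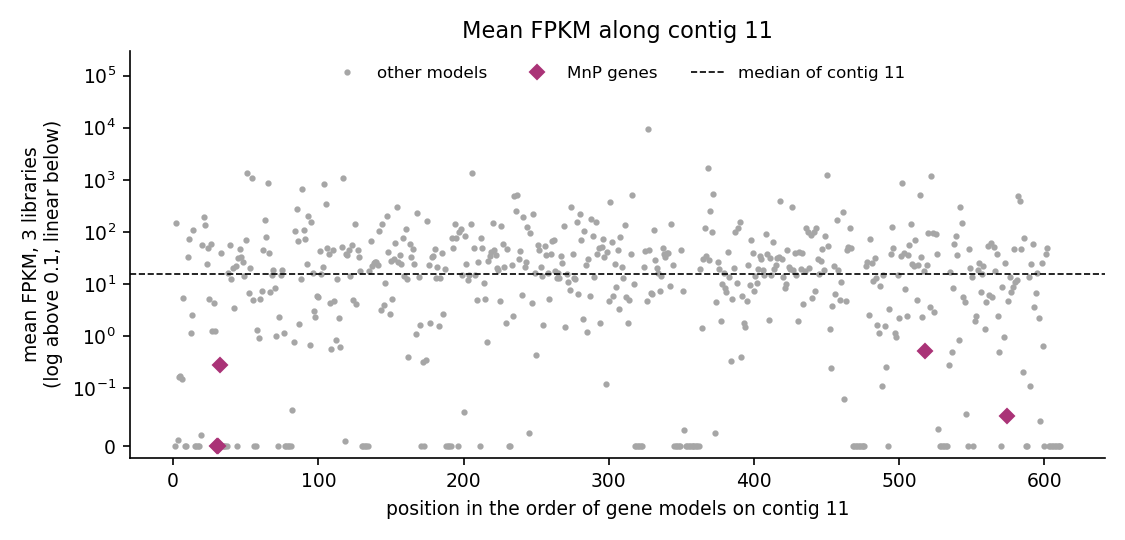
Mean FPKM over the 3 libraries of each of the 611 models of contig 11 in the order of their numbers, on an axis that is logarithmic above 0.1 and linear below; diamonds are the MnP genes and the dashed line is the contig median of 15.5. All 5 diamonds, those of SRUG_09291 and SRUG_09292 overlapping at 0, lie below the dashed line, at mean values of at most 0.514 FPKM.

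The models around the 3 consecutive genes were mixed in level. The model just before them, SRUG_09290, had 0.729, 0.959 and 2.16 FPKM in libraries 1, 2 and 3. SRUG_09288, another of the 5 models before them, had 0.742, 2.63 and 0.402 FPKM and was the only one of the 30 flanking models at more than 4 times the mean of libraries 1 and 3 in library 2. All 5 models before the genes had a mean FPKM of at least 1, up to 59.1 for SRUG_09287. The model just after them, SRUG_09294, was expressed evenly at 40.6, 41.0 and 37.6 FPKM. It was followed by 4 models, SRUG_09295 to SRUG_09298, without a count in any library. The median over the 10 flanking models was 1.27 FPKM, and with 10 models on each side it was 14.5, so this median depended on the width of the window. Runs of at least 4 consecutive models without a count occurred 11 times on contig 11, and the longest had 10 models.

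SRUG_09779 stood among well-expressed models. The models next to it, SRUG_09778 and SRUG_09780, had 17.6 ± 3.94 and 23.7 ± 9.03 FPKM (SD, n = 3 each). All 10 flanking models reached a mean FPKM of 1, from 2.32 (SRUG_09777) to 1176 (SRUG_09783), with a median of 28.7. SRUG_09779 was below every one of them in every library. Its high value in library 2 was not shared by its nearest neighbours, with 20.7 FPKM in library 2 against 13.2 and 18.8 in libraries 1 and 3 for SRUG_09778, and 13.6 against 31.0 and 26.4 for SRUG_09780.

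SRUG_09835 also lay between expressed models. SRUG_09834, just before it, had 29.5, 22.1 and 26.2 FPKM, and SRUG_09836, just after it, had 3.56, 7.62 and 3.25 FPKM in libraries 1, 2 and 3. Of its 10 flanking models, 7 reached a mean FPKM of 1, with a median of 8.01 over the 10. The exceptions were SRUG_09833, with a mean of 0.955 FPKM, SRUG_09830, with 0.773, 0.466 and 0.260 FPKM in libraries 1, 2 and 3, and SRUG_09831, which had no count. SRUG_09833 had 1.04, 0.105 and 1.72 FPKM in libraries 1, 2 and 3 and was lowest in library 2.

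**Figure D5:**
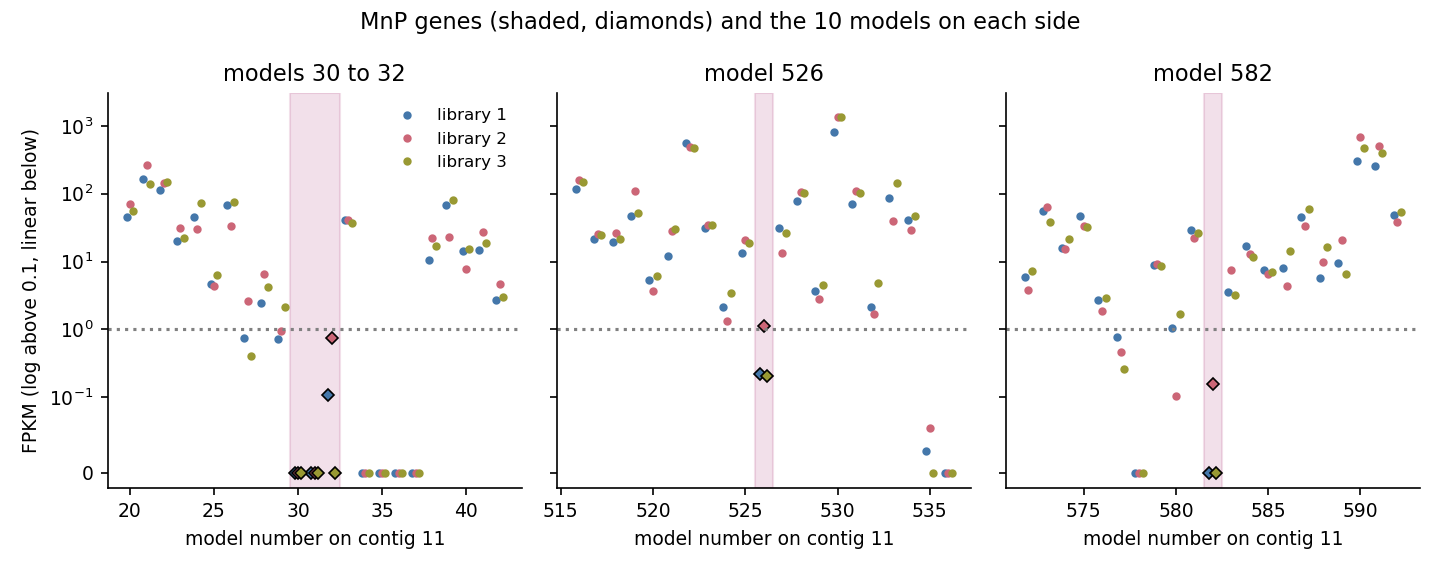
FPKM in each of the 3 libraries for the MnP genes (diamonds on shading) and the 10 models listed on each side, by model number on contig 11, on an axis that is logarithmic above 0.1 and linear below. The shaded genes lie below most of their neighbours, which have flanking medians of 1.27, 28.7 and 8.01 FPKM for the 5 nearest models on each side, and models 34 to 37 are at 0.

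The genes with the most similar levels were found by the Euclidean distance of log2(FPKM + 1) over the 3 libraries, a measure that for genes this low reflects mainly that both are low. Among the other 16 MnP genes, SRUG_09779 was closest to SRUG_07844 (distance 0.287) and then to SRUG_09293 (0.415). SRUG_09293 was closest to SRUG_09779 (0.415) and then to SRUG_09835 (0.607). SRUG_09835 was closest to SRUG_09291 and SRUG_09292 (0.209 each). Among the 606 other models of contig 11, the closest to SRUG_09779 were SRUG_09376 (0.263), with 8, 46 and 17 counts, and SRUG_09797 (0.423), with 3, 41 and 23 counts in libraries 1, 2 and 3. Those closest to SRUG_09293 were SRUG_09265 (0.260) and SRUG_09266 (0.275), models 4 and 5, with 18 and 13 counts in library 2 and at most 2 elsewhere. The closest to SRUG_09835 were SRUG_09807 (0.0104) and SRUG_09858 (0.0304), with 3 and 4 counts in library 2 and none in the others.

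The sources used here do not say how reads that map to several genes were treated. If SRUG_09291, SRUG_09292 and SRUG_09293 have similar sequences, the split of reads among them is uncertain, and their summed counts were those of SRUG_09293 alone, 4, 26 and 0.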

How the data were processed

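The authors deposited whole-number counts per gene model and per transcript, without normalization, and FPKM values that they computed, in 4 tables of 11750 models; the 2 count tables differed in 0 cells, as did the 2 FPKM tables. The labels name fastp, HISAT2 and StringTie among the processing tools; the sources used here do not give the versions behind these tables, strand use, treatment of multi-mapping reads or the FPKM total. Library totals were 31831513, 30516180 and 29678333 counts.

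Genes were matched by SRUG identifier and ordered by the model number in their names. Levels are mean FPKM with SD over 3 libraries. Fragments are counts divided by 2, rounded up. Intervals are exact Poisson or Clopper-Pearson (95%). TMM (edgeR 4.0.16) and DESeq2 1.42.0 size factors were alternatives (R 4.3.3), tested on simulated data; Python 3.11.15, pandas 2.3.3 and SciPy 1.17.1 did the rest. The named genes are the 5 members, the other 12 MnP genes, the 5 models on each side of each locus and, for each member with a count, the 2 most similar MnP genes and the 2 most similar models of contig 11; SRUG_09282 was named after its value was seen. Members, lists and thresholds were chosen with earlier results of these data known. Other thresholds, units, windows and left-out libraries were tried. No sequences were analysed here.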

Additional observations from a re-analysis of the deposited data

How the results depend on the processing

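The number of MnP genes on contig 11 with a mean FPKM of at least 1 stayed at 0 with the median, a threshold of 5 FPKM, TPM, either CPM, the second FPKM table and each library left out (0 to 0). It was 2 at a mean of at least 0.1 FPKM, 1 at 0.5 FPKM and 1 when an FPKM of 1 in at least 1 library sufficed. Of the 3 genes with a count, 1 had one in every library, and leaving out a library gave 2 to 3. The ratio of library 2 to libraries 1 and 3 fell to 1.65 for SRUG_09293 and 1.74 for SRUG_09779 with 1 FPKM added to both sides, which exceeds most of the values themselves. It was 4.98 to 5.43 for SRUG_09779 with library 3 or 1 left out, alternatives added after the data were seen. For SRUG_09293 it fell from 13.9 to 6.93 with library 3 left out. With library 1 left out it has no value, because library 3 held no count of this gene. With 10 models on each side, 51 of 60 flanking models reached a mean FPKM of 1, and the medians were 14.5, 23.8 and 11.5 FPKM around SRUG_09291 to SRUG_09293, SRUG_09779 and SRUG_09835. As TPM the medians around SRUG_09779 and SRUG_09835 were 33.0 and 9.20. With each library left out, the flanking medians were 1.01 to 1.54, 27.7 to 32.1 and 6.68 to 8.04 FPKM, and 22 to 23 models reached 1. No paired analysis was possible because there is a single group. Depth limits all statements on genes at or below 6 counts.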

Other observations

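The first 40 models listed on contig 11, a stretch that holds SRUG_09291 to SRUG_09293 and was chosen after the values were seen, included 13 without a count in any library (32.5%), against 76 of the 571 models after it (13.3%). Their median of the mean FPKM was 1.21, against 16.5 for the rest of the contig. Strongly expressed models stood among them, such as SRUG_09282, model 21, with 192 FPKM, a gene named after its value was seen. Of the 27 models of this stretch with counts, 13 were highest in library 2, 2 in library 1 and 12 in library 3. Over all 522 models of contig 11 with counts, these numbers were 221, 106 and 195. The difference was not tested.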
